A study of Mus musculus with 6 samples.

Results

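Ush1c, Ush1g, Pdzd7, Myo7a, Clrn1 and Ptprq encode scaffold, motor and membrane proteins of the hair bundle, and they were examined here in cochlear tissue of mice whose inner hair cells (IHCs) overexpress the K+ channel Kir2.1. The genes were chosen by symbol, as Usher scaffold, ankle-link and shaft-connector genes, with earlier results of these data known. They are 6 of the 24411 gene symbols counted, and all 6 passed the filter on low counts, as did 15303 genes in all.

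RNA of the cochlear sensory epithelium was sequenced at P9 from 3 pools of Kir2.1-OE mice and 3 pools of littermate controls, each pool holding 8 cochleae from 4 mice, so that the pool is the replicate. Both genotypes, on a C57BL/6N background, carried 1 copy of Otof rtTA (Otof rtTA+/-), a doxycycline-dependent activator under the promoter of Otof, a gene expressed mainly in IHCs. Both were exposed to doxycycline (DOX) through their mothers, whose drinking water held 0.5 mg/ml during pregnancy and nursing. Kir2.1-OE mice also carried, as a heterozygous transgene, tet-o-Kir2.1-IRES-tau-lacZ, from which the activator drives Kir2.1, whereas controls did not. The comparison asks which genes of the hair bundle differ in RNA level when IHCs carry the extra K+ channel.

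Between 35430940 and 41205047 reads per library were assigned to genes. Kcnj2, which encodes Kir2.1, had between 2213 and 3813 normalized counts in the Kir2.1-OE libraries and between 226.0 and 235.8 in controls, so each library followed its label. A normalized count is a gene's estimated read count divided by the relative size of its library. Since the libraries are of whole tissue, fewer cells of a type and less RNA per cell cannot be told apart. Hair cell markers were present in every library: the summed normalized count of a list of 12 genes shared by inner and outer hair cells was 13455 to 15265 in Kir2.1-OE mice and 14323 to 16071 in controls. A large part of this sum was Pvalb, with 4132 to 7027 in Kir2.1-OE mice, highest in replicate 3, and 5044 to 5312 in controls.

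The stereocilia of a hair bundle are held together by extracellular links, which are anchored to the actin core by scaffold proteins and myosins. Harmonin (Ush1c) and SANS (Ush1g) are scaffolds at the upper end of the tip link, where they bind each other, the link cadherins and the motor myosin VIIa (Myo7a). PDZD7 is a PDZ-domain scaffold of the ankle links, which connect the bases of stereocilia in developing bundles, PTPRQ is a receptor-like phosphatase of the shaft connectors, and clarin-1 (Clrn1) is a membrane protein of hair cells. Loss of Ush1c, Ush1g, Myo7a or Clrn1 causes Usher syndrome, the joint loss of hearing and sight.

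Of the 6 genes, Ush1g, Pdzd7, Myo7a and Ptprq were called, each with the higher level in Kir2.1-OE mice, while Ush1c and Clrn1 were not called. Calls required a fold change over 1.5 and an adjusted p under 0.05, where adjusted p-values are those of edgeR's quasi-likelihood test, Benjamini-Hochberg adjusted over all genes tested. These thresholds called 20.5% of all genes, 15.5% higher and 5.08% lower. By the adjusted p alone the same 4 of the 6 genes passed, as did 50.8% of all genes. Over the 6 genes the log2 fold change had a median of 0.85, against 0.01 over all genes tested. In 5 of the 6 genes the groups did not overlap, 4 of them with the Kir2.1-OE pools above the controls and Ush1c below. The groups did not overlap in 61.6% of all genes, that is 31.7% of all genes with higher and 29.9% with lower Kir2.1-OE values.

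**Figure D1:**
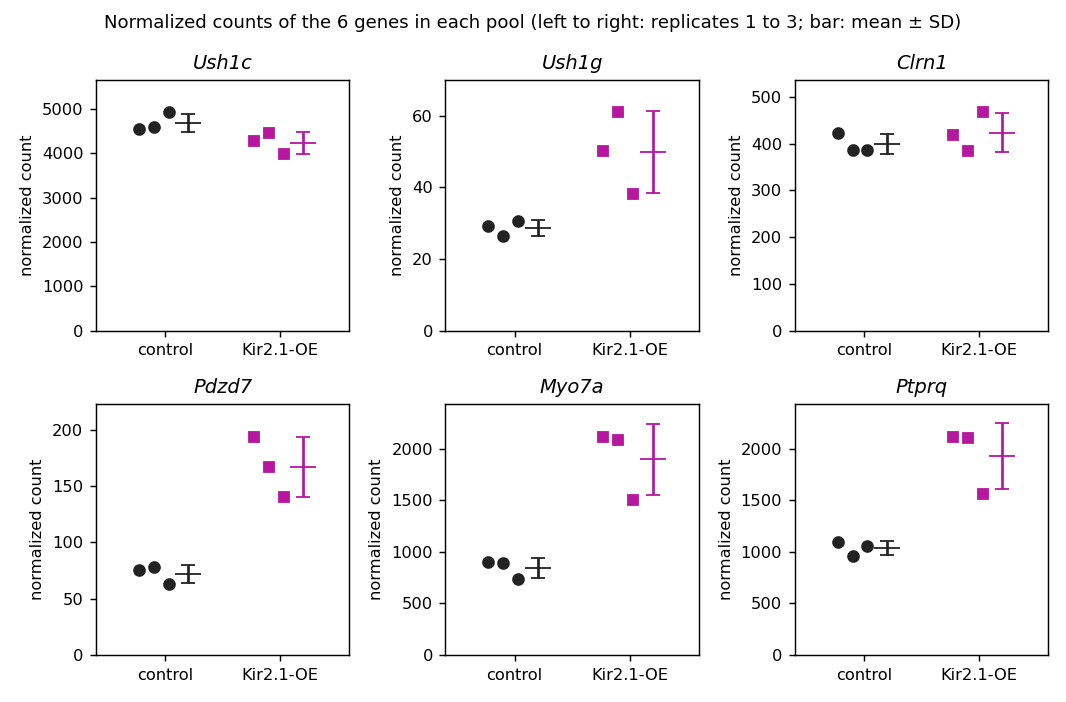
Normalized counts of the 6 genes in 3 pools of Kir2.1-OE mice and 3 of controls, with the mean and SD of each group. The pools of the 2 genotypes do not overlap for Ush1g, Pdzd7, Myo7a and Ptprq, which are higher in Kir2.1-OE mice, or for Ush1c, which is lower, and they overlap for Clrn1.

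Ush1c was the most abundant of the scaffold genes and changed least of the genes whose groups did not overlap. It lies on the minus strand of chromosome 7 (mm10, 46195350 to 46238503), and its longest transcript has 3072 nt in 27 exons. Kir2.1-OE replicates 1 to 3 had 4280, 4455 and 3973 normalized counts of Ush1c, against 4552, 4586 and 4919 for control replicates 1 to 3. Every Kir2.1-OE pool was below every control pool, but the means of 4236 ± 244 and 4686 ± 203 (SD, n = 3 pools) were close. The log2 fold change of -0.15 (standard error 0.0721, 95% interval -0.31 to 0.02) did not pass the test (edgeR, adjusted p = 0.120).

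Ush1g, in contrast, was the least abundant of the 6 genes, and few reads stand behind its change. It lies on chromosome 11 (mm10, minus strand, 115315192 to 115322041) and has 3 exons in a transcript of 3306 nt. Its normalized counts were 50.3, 61.0 and 38.1 in Kir2.1-OE pools, against 29.1, 26.4 and 30.5 in control pools. The lowest Kir2.1-OE pool was replicate 3, which was still above the highest control. The log2 fold change was 0.80 (standard error 0.276, 95% interval 0.18 to 1.42), with an adjusted p of 0.0363 in edgeR. When 1 library was left out, Ush1g was called only without Kir2.1-OE replicate 3 (0.94), and its log2 fold change lay between 0.60 and 0.94.

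Pdzd7 had the highest log2 fold change of the 6 genes. It lies on chromosome 19 (mm10, minus strand, 45026906 to 45045717), and its longest transcript has 3265 nt in 16 exons. Kir2.1-OE replicates 1 to 3 had 194, 167 and 141 normalized counts, and control replicates 1 to 3 had 75.2, 78.1 and 63.1. The groups were far apart for this scaffold of the ankle links, with means of 167 ± 26.6 and 72.2 ± 7.98 (SD, n = 3 pools) and a 2.32-fold difference. The log2 fold change of 1.21 (standard error 0.193, 95% interval 0.78 to 1.64) had an adjusted p of 9.54e-04 in edgeR. Pdzd7 and Myo7a were the 2 of the 6 genes that also passed glmTreat, edgeR's stricter test of whether a log2 fold change exceeds 0.6, which called 5.44% of all genes higher and 0.372% lower. The adjusted p of Pdzd7 in glmTreat was 0.0293.

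Pdzd7 shares 206 exonic bases with Lzts2, which lies on the opposite strand and had far more reads. Lzts2 had 4633, 3987 and 3952 normalized counts in the Kir2.1-OE libraries and 3269, 3515 and 3681 in controls, with all Kir2.1-OE pools above all controls. Its log2 fold change was 0.26 (edgeR, adjusted p = 0.0253), under the 1.5-fold threshold. The strand setting of the counting is not given in the sources used here, so reads of the shared bases cannot be assigned to either gene with certainty, and their part in the change of Pdzd7 was not tested. Ush1g lies opposite to Otop2 without shared exonic bases, and Otop2 had 0 to 3 reads per library. Ush1c shares 120 exonic bases with Gm9860, also on the opposite strand.

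Myo7a, the motor gene, was higher in every Kir2.1-OE pool. It spans 98051060 to 98119524 on the minus strand of chromosome 7 (mm10), with 49 exons in its longest transcript of 7506 nt. The Kir2.1-OE pools had 2113, 2080 and 1501 normalized counts of Myo7a and the control pools 905, 887 and 733. Replicate 3 had the lowest value in both groups, and the lowest Kir2.1-OE value was well above the highest control. The 95% interval of the log2 fold change of 1.17 was 0.86 to 1.49, and its adjusted p in edgeR's glmTreat was 0.00901.

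Ptprq, the gene of the shaft connectors, was higher in all Kir2.1-OE pools as well. It lies on chromosome 10 (mm10, minus strand, 107517049 to 107720051) and has 45 exons in a transcript of 7393 nt. In Kir2.1-OE pools it had 2114, 2106 and 1556 normalized counts, and in control pools 1096, 961 and 1051. Here too Kir2.1-OE replicate 3 was the lowest of its group and lay above all controls. The fold change was 1.86, and the 95% interval of the log2 fold change of 0.89 was 0.62 to 1.17.

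Clrn1 did not differ beyond the spread between pools. It lies on chromosome 3 (mm10, minus strand, 58844028 to 58885340), with 4 exons in a transcript of 3083 nt. It had 418, 384 and 467 normalized counts in the Kir2.1-OE libraries and 423, 386 and 387 in controls. The groups overlapped, and Kir2.1-OE replicate 3, the lowest of its group for the other 5 genes, was the highest for Clrn1. The log2 fold change was 0.08 (standard error 0.113, 95% interval -0.17 to 0.34; edgeR, adjusted p = 0.563), so a change of 1.5-fold lies outside its interval in either direction.

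**Figure D2:**
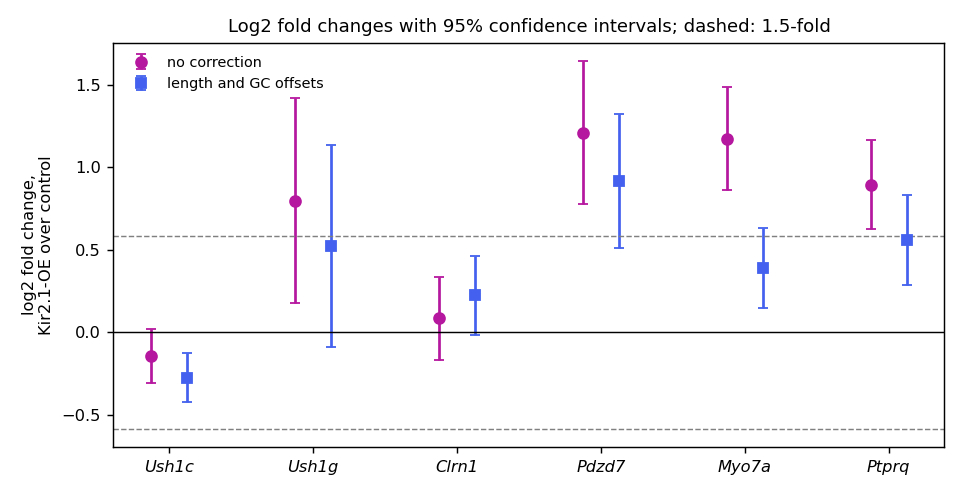
Log2 fold changes (Kir2.1-OE over control) of the 6 genes with their 95% intervals, from the model as reported and from the model with offsets for transcript length and GC content. Pdzd7 lies at 1.21 and 0.92, whereas Myo7a moves from 1.17 to 0.39 and Ush1c from -0.15 to -0.28.

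The promoters of the scaffold, motor and clarin genes are shown because these genes moved unequally, with Pdzd7 and Myo7a called higher and Ush1c and Clrn1 not. Each sequence is the 250 bases before the RefSeq start site (GRCm38.p6, minus strand, written 5′ to 3′), and matches to the E-box CANNTG, a sequence bound by basic helix-loop-helix factors such as ATOH1, are in capitals. RefSeq gave a promoter for 4 of the 6 genes.
Pdzd7, chr19:45045773-45046022: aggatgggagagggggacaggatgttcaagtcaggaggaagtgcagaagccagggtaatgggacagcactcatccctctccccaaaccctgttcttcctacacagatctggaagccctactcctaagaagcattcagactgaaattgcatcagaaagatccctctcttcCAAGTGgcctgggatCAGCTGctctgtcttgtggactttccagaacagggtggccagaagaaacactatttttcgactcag
Myo7a, chr7:98119494-98119743: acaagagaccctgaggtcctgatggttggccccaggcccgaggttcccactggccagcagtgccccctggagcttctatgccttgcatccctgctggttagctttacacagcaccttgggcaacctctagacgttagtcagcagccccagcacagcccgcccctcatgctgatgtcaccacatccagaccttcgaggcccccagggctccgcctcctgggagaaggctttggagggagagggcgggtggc
Ush1c, chr7:46238491-46238740: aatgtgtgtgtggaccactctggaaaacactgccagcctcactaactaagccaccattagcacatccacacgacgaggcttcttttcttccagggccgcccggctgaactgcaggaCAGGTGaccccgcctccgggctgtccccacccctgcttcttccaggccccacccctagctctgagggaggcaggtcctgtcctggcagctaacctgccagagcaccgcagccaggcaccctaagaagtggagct
Clrn1, chr3:58885213-58885462: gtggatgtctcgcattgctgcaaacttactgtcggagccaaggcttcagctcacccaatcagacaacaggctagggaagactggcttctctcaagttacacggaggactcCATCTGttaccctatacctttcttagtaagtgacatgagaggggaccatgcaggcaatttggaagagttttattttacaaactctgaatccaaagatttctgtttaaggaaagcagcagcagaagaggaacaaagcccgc

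The promoter of Pdzd7 held 2 E-boxes, 81 and 66 bases before the start site, and those of Ush1c and Clrn1 held 1 each, at 134 and 140 bases. No E-box was found in that of Myo7a, while a second RefSeq start of Myo7a had 2 in its window (chr7:98109249-98109498). CANNTG occurred on either strand in 66.2% of 32536 promoters of the same length. The nearer match of Pdzd7 was CAGCTG, a case of CANNTG that 13.1% of promoters held. The RFX half-site GTTGCC, in 10.3% of promoters, was found only at the first start of Myo7a among these windows, 132 bases before it. ACAANG (a SOX core, 36.2% of promoters) was found in Clrn1 and at the second start of Myo7a, and TAATNG (an ISL1 core, 18.4%) in Ush1c and Pdzd7. AATCNC (GFI1, 29.5%) and ATTAAT (POU4F, 4.39%) were found in none of the windows. Motifs were searched on both strands. These matches describe the letters of the windows, were found in both called and uncalled genes, and say nothing of binding.

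The fold changes of the 6 genes were set beside those of genes with transcripts of like length, since over all genes longer transcripts had higher log2 fold changes. The median was 0.01 over the 3046 genes of 3000 to 4000 nt, the class of Ush1c, Ush1g, Clrn1 and Pdzd7, and 8.73% of them were called higher. It was 0.54 over the 1289 genes of 6000 to 8000 nt, the class of Myo7a and Ptprq, and 44.5% of them were called higher. Pdzd7 lay 1.20 above the median of its class on the log2 scale and above 98.3% of its genes. Ush1g lay 0.79 above, Myo7a 0.64 and Ptprq 0.36, whereas Clrn1 lay 0.07 above and Ush1c 0.16 below (-0.16).

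**Figure D3:**
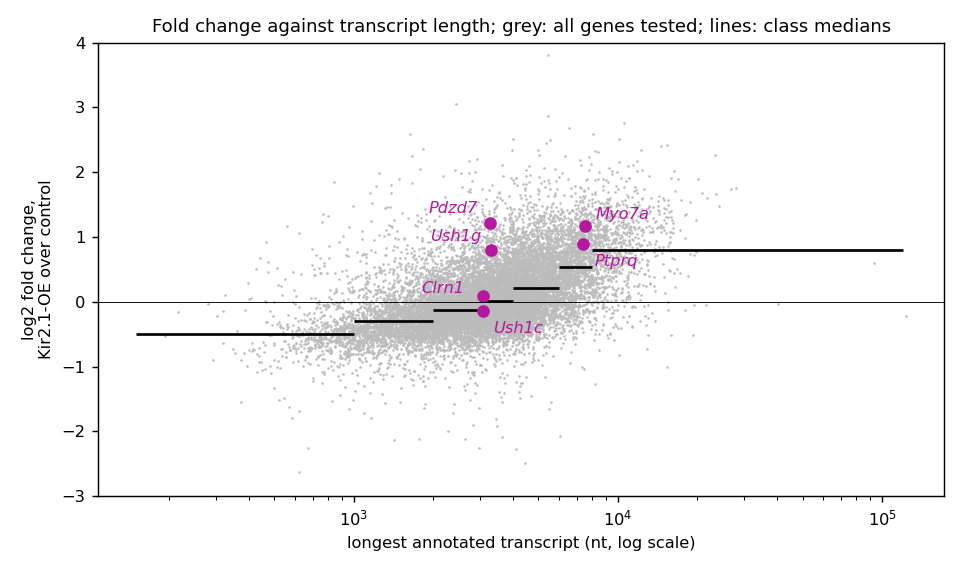
Log2 fold change (Kir2.1-OE over control) of all genes tested against the length of the longest annotated transcript in nt (log axis), with the median of each length class and the 6 genes named. The class medians rise with length, and Pdzd7, of 3265 nt, lies at 1.21 where the median of its class is 0.01; 3 genes lie outside the vertical range.

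With offsets for transcript length and GC content in the model, Pdzd7 was the only one of the 6 genes that was called, where 7.02% of all genes were called higher and 2.86% lower. Its log2 fold change was then 0.92 (95% interval 0.51 to 1.32; edgeR, adjusted p = 0.00610). Myo7a had 0.39 (edgeR, adjusted p = 0.0237) and Ptprq 0.56 (adjusted p = 0.00888), both under the 1.5-fold threshold. For Ush1c the log2 fold change became -0.28 (95% interval -0.42 to -0.13; edgeR, adjusted p = 0.0124). Ush1g had 0.52 (adjusted p = 0.168) and Clrn1 0.22 (adjusted p = 0.136), with intervals that held 0. The median of the 6 genes was 0.46 with the offsets, against -0.00 over all genes. The cause of the trend with length was not tested.

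To compare the 6 genes with other genes of hair cells, each was divided by the mean of the shared hair cell list in the same library, on the log2 scale. The list itself differed by -0.05 between the genotypes and its values overlapped. Its genes differed among themselves, with Loxhd1 (1.44) called higher, Atoh1 (-1.03) called lower and 10 not called. These relative values are not corrected for transcript length, and Myo7a itself had 0.39 with the offsets. Relative to it, Pdzd7 was higher by 1.25 in Kir2.1-OE mice, Myo7a by 1.21, Ptprq by 0.93 and Ush1g by 0.81, with no overlap between the groups in any of these 4 (exact permutation test, two-sided, p = 0.10 each, the smallest p that 3 pools against 3 allow, and 0.15 after Benjamini-Hochberg adjustment over the 6 genes). Relative values did not overlap in 30.6% of all genes with higher and in 20.2% with lower values in Kir2.1-OE mice. Ush1c differed by -0.10 (exact permutation p = 0.40) and Clrn1 by 0.13 (exact permutation p = 0.50), and both overlapped.

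The choice of reference mattered. A list of 6 IHC markers was itself higher by 0.48 in Kir2.1-OE mice without overlap, but its genes differed among themselves. Otof (0.76), Slc7a14 (1.36) and Calb2 (0.68) were called higher, whereas Tbx2 (0.32), Slc17a8 (0.09) and Fgf8 (-0.32) were not called. With the length and GC offsets Otof had -0.02. Against that list Pdzd7 was higher by 0.72 and Myo7a by 0.69, still without overlap, and Ptprq by 0.41 and Ush1g by 0.29, both with overlap. Ush1c (-0.62) and Clrn1 (-0.40) were then lower without overlap. Relative to this list 9.32% of all genes were higher and 59.9% lower without overlap. Against Myo6 alone, which was itself 0.36 higher, the differences were 0.84 for Pdzd7, 0.80 for Myo7a, 0.52 for Ptprq, 0.40 for Ush1g, -0.28 for Clrn1 and -0.50 for Ush1c, and of the 6 genes only Clrn1 overlapped. Relative to Myo6, 12.7% of all genes were higher and 52.6% lower without overlap.

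**Figure D4:**
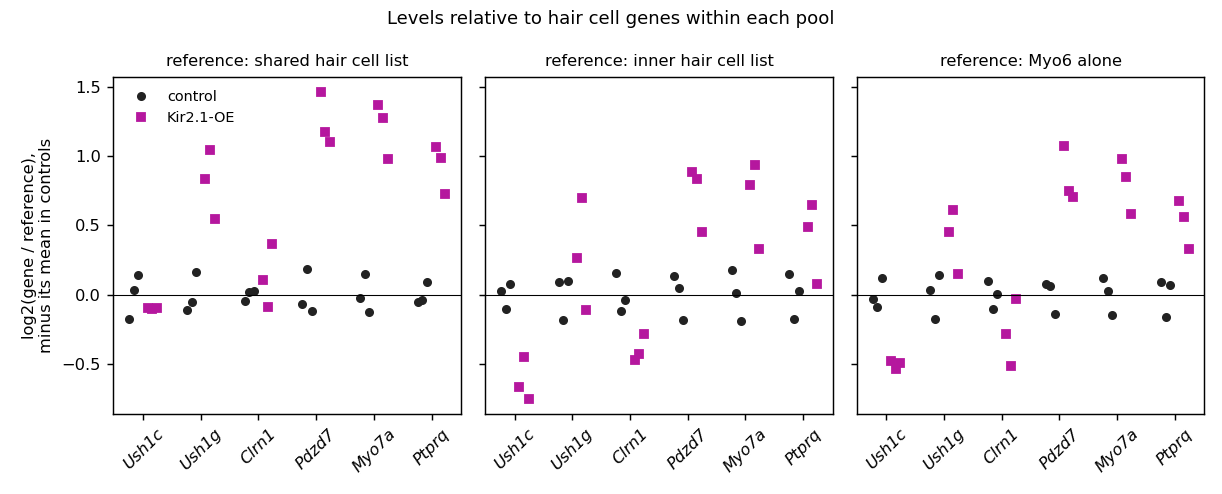
Log2 ratio of each of the 6 genes to 3 references in the same library, for each pool, minus the mean ratio in controls. The references are the shared hair cell list, the IHC list and Myo6. The mean of the Kir2.1-OE pools is above 0 for Pdzd7 and Myo7a against each reference (0.69 to 1.25), and below 0 for Ush1c (-0.62 to -0.10).

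Ratios between the genes need no scaling between libraries, but they are not corrected for transcript length. Of the 15 pairs, 10 had ratios that did not overlap between the genotypes, where 55.9% of all pairs of genes tested did not overlap. The uncorrected ratios of Ush1c to Myo7a and to Ush1g were lower in every Kir2.1-OE pool than in any control pool. Ush1c itself had a log2 fold change of -0.15, against 1.17 for Myo7a and 0.80 for Ush1g. Ratios of Ush1c to the link cadherin genes were not computed. The log2 ratio of Ush1c to Myo7a was 2.48 ± 0.230 in controls and 1.17 ± 0.204 in Kir2.1-OE mice (SD, n = 3 pools), a difference of -1.31, and that of Ush1c to Ush1g differed by -0.91. With the length and GC offsets these differences were -0.67 and -0.80. The ratios of Clrn1 to Pdzd7, Myo7a and Ptprq differed by -1.12, -1.08 and -0.80, and by -0.69, -0.17 and -0.34 with the offsets. The ratio of Pdzd7 to Myo7a differed by 0.04 (exact permutation test, two-sided, p = 0.70), and by 0.53 with the offsets. Each pair without overlap had an exact permutation p of 0.10 and 0.15 after adjustment over the 15 pairs.

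Levels of different genes were compared per kilobase of the longest transcript. In controls Ush1c led with 1525 ± 66.1 normalized counts per kilobase (SD, n = 3 pools), followed by Ptprq (140 ± 9.26), Clrn1 (129 ± 6.91), Myo7a (112 ± 12.6), Pdzd7 (22.1 ± 2.44) and Ush1g (8.67 ± 0.643). Ptprq and Clrn1 overlapped over the 3 pools, and the other neighbours in this order were apart. With the length of all annotated exons in place of the longest transcript, Clrn1 (103 ± 5.52) and Myo7a (98.2 ± 11.0) overlapped in controls, and Ptprq and Clrn1 did not. In Kir2.1-OE mice the order was Ush1c (1379 ± 79.4), Ptprq (260 ± 43.3), Myo7a (253 ± 45.8), Clrn1 (137 ± 13.5), Pdzd7 (51.2 ± 8.16) and Ush1g (15.1 ± 3.46). There Ptprq and Myo7a overlapped, and Myo7a lay above Clrn1 in every pool. Of the summed level per kilobase of the 6 genes, Ush1c held 78.7% in controls and 65.9% in Kir2.1-OE mice, while Myo7a held 5.80% and 12.0% and Pdzd7 1.14% and 2.44%.

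Among 7 other Usher and ankle-link genes examined, 3 were called higher and none lower, with a median log2 fold change of 0.39. Over all genes 15.5% were called higher and 5.08% lower. Among genes of 8000 nt or more, the class of Cdh23, Pcdh15, Adgrv1 and Vezt, 64.0% were called higher and the median was 0.81. The tip-link cadherin genes Cdh23 (0.90) and Pcdh15 (1.11) and the scaffold gene Whrn (0.77) were called. Whrn, whose product whirlin partners PDZD7 at the ankle links, had 684, 617 and 491 normalized counts in the Kir2.1-OE libraries and 333, 414 and 300.3 in controls, without overlap. Adgrv1, which encodes a large receptor of the ankle links, had a log2 fold change of -0.05 (edgeR, adjusted p = 0.752). Cib2, whose product binds the transduction channel, had -0.51 (edgeR, adjusted p = 0.00211), under the 1.5-fold threshold, and Clrn2 (0.39) and Vezt (0.07) were not called. With the length and GC offsets none of the 7 was called higher and Adgrv1, of 19338 nt, was called lower (-1.02). Cdh23 then had -0.15, Pcdh15 0.58 and Whrn 0.24, and the median of the 7 was -0.15.

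Of 6 genes of the taper at the base of the stereocilium, 1 was called, where 20.5% of all genes were called. Grxcr1, a glutaredoxin-like gene needed for stereocilia, had 114, 129.9 and 96.3 normalized counts in the Kir2.1-OE libraries and 249, 163 and 189 in controls, and its log2 fold change was -0.82 (edgeR, adjusted p = 0.00838). With the offsets it was -0.34 and not called. Myo6, Rdx, Clic5, Tprn and Grxcr2 had log2 fold changes of 0.36, 0.29, 0.07, 0.14 and -0.19, and the median of the 6 was 0.11.

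Harmonin also works outside the ear, in the brush border of the gut, where it binds a second set of partners. Of 5 such genes only 2 passed the filter on low counts. Calml4, a calmodulin-like partner of Myo7b, was called lower (-0.73) and remained so with the offsets (-0.65), with 1267, 1362 and 1321 normalized counts in the Kir2.1-OE libraries and 2439, 2015 and 2092 in controls. Myo7b, the paralog of Myo7a, was called higher (0.91), at 39.3 ± 7.31 against 20.9 ± 3.98 normalized counts (SD, n = 3 pools), but not with the offsets (0.20). Cdhr5 was listed at 0 in all libraries. Of 5 tested paralogs of the 6 genes, 2 were called higher, Myo7b and Ptprb, where 15.5% of all genes were called higher. Ptprb, a phosphatase of blood vessels, had a log2 fold change of 1.54, whereas Ptprj (0.41), Ptpro (0.33) and Clrn2 were not called. The transcript of Ptprb has 11911 nt, and 64.0% of genes of 8000 nt or more were called higher. With the offsets Ptprb had 0.77 and was still called (edgeR, adjusted p = 0.00848).

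**Figure D5:**
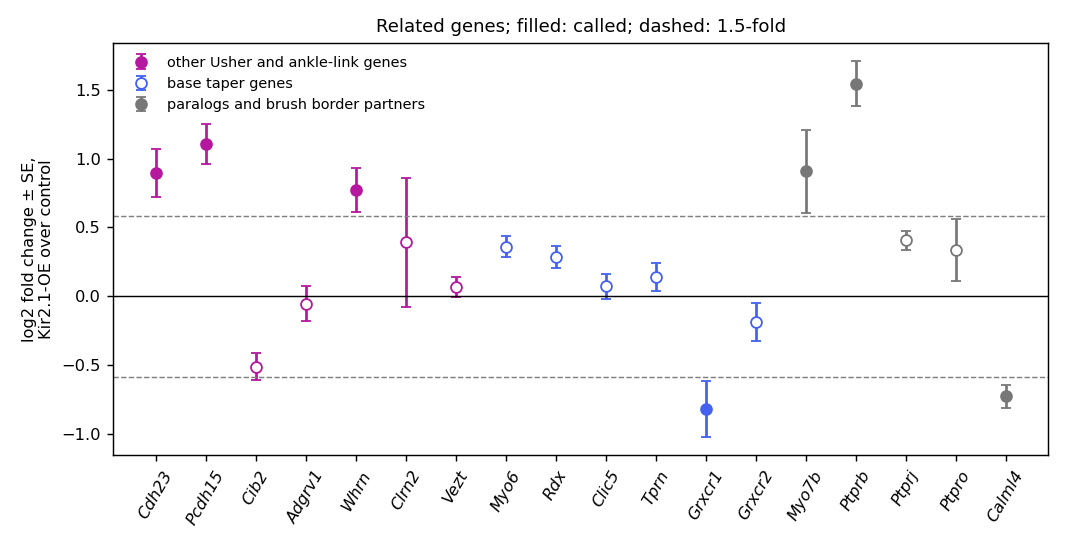
Log2 fold change (Kir2.1-OE over control) with its standard error for the other Usher and ankle-link genes, the base taper genes, and the paralogs and brush border partners, with called genes filled and dashed lines at 1.5-fold. Cdh23, Pcdh15 and Whrn lie above the line, Adgrv1 and Vezt near 0, and Grxcr1 and Calml4 below it.

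The genes with the profile most like each of the 6 over the 6 libraries were found by the root mean square difference of their log2 normalized counts, each centred on its own mean, among genes that averaged 100 normalized counts or more. All of a gene's points come from the same 6 libraries, so likeness here describes these libraries only. Nearest to Ush1c were Epcam (0.0205), Sdc4 and Car2. Nearest to Pdzd7 were Kmt2b (0.0371), Zfp236 and Zfp462, and nearest to Myo7a were Rai1 (0.0435), Kmt2b (0.0509) and Pdzd7 (0.0767). Without the length and GC offsets, Pdzd7 and Myo7a were the closest pair within the 6 genes. Ptprq lay nearest to Irs2 (0.0528), Fgd6 and Nbeal1, Clrn1 to Mboat1 (0.0285), Aplp1 and Mypop, and Ush1g to Zic5 (0.0863), Ptger1 and Hdc.

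Some markers of other tissue in the dissection differed between the genotypes as well. Bone and cartilage genes (7 genes, 3 called higher) summed to 651474 to 780688 normalized counts in Kir2.1-OE mice and 289785 to 406024 in controls. Most of that sum was Col2a1, with 520277 to 652926 in Kir2.1-OE mice and 256404 to 312641 in controls. Its log2 fold change was 1.02, and 0.34 and not called with the length and GC offsets. Ibsp, Sp7 and Bglap overlapped, while Matn1 (-0.57) was lower in every Kir2.1-OE pool, and these 4 were not called. Neuron genes (8 genes, 4 called higher) summed to 26795 to 50213 against 16432 to 23350, the highest value being that of Kir2.1-OE replicate 3. That pool had the lowest Myo7a, Pdzd7 and Kcnj2 of its group, with 2213 normalized counts of Kcnj2 against 3612 and 3813. Of 6 glial genes 2 were called higher, and 3 of 5 erythrocyte and 2 of 4 tested melanocyte genes were called lower. Of 8 outer hair cell genes 2 were called higher, and of 9 supporting cell genes 1 was called higher and 1 lower. Of 5 fibrocyte genes 1 was called higher, and of 5 macrophage genes none in either direction. Over all genes 15.5% were called higher and 5.08% lower. With the offsets 4 neuron, 3 glial and 2 outer hair cell genes were called higher. So was 1 gene each of the bone and cartilage, supporting cell, fibrocyte and macrophage lists. No erythrocyte and 2 melanocyte genes were then called lower. The offsets called 7.02% of all genes higher and 2.86% lower. The part of these differences in the values of the 6 genes was not tested.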

How the data were processed

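Poly(A)-enriched libraries were sequenced in paired reads and mapped to mm10 with an nf-core pipeline, and Salmon estimated the reads per gene. The authors deposited expected counts, which need not be whole (6.95% of values were not). Tool versions, annotation and strand setting are not given in the sources used here.

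Counts were rounded and fitted in edgeR 4.0.16 (R 4.3.3) with TMM scaling (factors 0.984 to 1.01), filterByExpr and the quasi-likelihood test, on genotype alone. Depth was 35430940 to 41205047 assigned reads. Transcript lengths came from GENCODE vM21. Offsets were a loess trend (span 0.4) on length and GC content. Single values were compared by exact permutation tests (scipy 1.17.1), with 0.5 added before log2. The sources do not say whether pools of a group differ by litter or day, so p-values measure only the spread between these pools. The file header of control replicate 1 carries the number 4.

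Named genes were the 6 members, Kcnj2, the related lists, the extremes among called list genes, and the 3 nearest profiles per member. The members and lists were chosen with earlier results of these data known. Alternatives were other scalings and filters, a replicate block, the offsets, DESeq2 1.42.0, limma-voom 3.58.1, glmTreat, no fold threshold, each library left out, and other references and lengths. Leaving libraries out of the ratios, and the offsets for ratios, were chosen after seeing the data. Protein sequences were not used here. Another gene of the related lists is not reported here.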

Additional observations from a re-analysis of the deposited data

How the results depend on the processing

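Pdzd7 was called under all 19 alternatives of the model, Myo7a under all but the 2 with length and GC offsets, and Ptprq under all but these and glmTreat. Ush1g was not called in 11 of the 19, among them DESeq2's Wald test (adjusted p = 0.0678) and upper quartile scaling (adjusted p = 0.0554 from edgeR). Ush1c kept its direction in all 19. Clrn1, never called, changed sign with upper quartile scaling (-0.00628) and without Kir2.1-OE replicate 3 (-0.00679, the lowest of -0.00679 to 0.128 with each library left out). Member genes called went from 4 to 1 with the offsets, 1 with the offsets and the replicate block, and 2 with glmTreat. Over all genes, 2365 called higher and 778 lower became 1074 and 438 with the offsets, 837 and 374 with the offsets and the block, 832 and 57 with glmTreat, and 4184 and 3590 with no fold threshold. Upper quartile scaling gave 1897 higher and 1378 lower. Leaving out each library in turn gave 1878 to 2527 higher, 536 to 1074 lower, 3 to 4 member genes called, 4 to 5 member genes apart relative to the hair cell list, and 10 to 15 pairs apart. With the offsets the log2 ratios of Ush1g to Myo7a (0.13, from -0.40) and of Myo7a to Ptprq (-0.17, from 0.28) changed sign. Deviations from the group means correlated at -0.106, -0.232 and -0.213 between same-numbered pools. With 3 pools a group, such correlations cannot show whether the replicate numbers pair the pools by litter or day. With the replicate block 3 member genes were called and Ush1g had 0.78 (adjusted p = 0.0883 from edgeR). The cause of these changes was not tested. With 3 pools a group, an exact test of a single value cannot go below 0.10, and the 29 to 61 reads of Ush1g limit its precision.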
